A study of Homo sapiens with 2 samples.

Results

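NRF2, encoded by NFE2L2, and KEAP1 form the switch that sets the antioxidant and detoxifying genes of a cell, and 9 genes of this pathway were compared between ACHN cells with an shRNA against Kindlin-2 and with a control shRNA. The 9 were the switch itself (NFE2L2 and KEAP1) and 7 genes known as NRF2 targets or redox enzymes (NQO1, HMOX1, GCLC, GCLM, TXNRD1, SRXN1 and OSGIN1). They were chosen by name. Each was represented by the transcript cluster (the probe set that the array designers group as 1 transcript) whose only annotated symbol was the gene's own. All 9 were found among the 18417 genes measured, and each had 1 such cluster, so no choice between clusters was needed.

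The study hybridised 2 Affymetrix Human Gene 1.0 ST arrays. The Kindlin-2 shRNA array carried RNA of the established human kidney cancer line ACHN, transfected with a short hairpin RNA against Kindlin-2, the integrin-binding adaptor encoded by FERMT2. The control shRNA array carried RNA of ACHN cells transfected with a control hairpin. The labels describe the line as clear cell renal cell carcinoma. Both cultures grew in minimum essential medium with 10% serum and 400 µg/ml of the selection drug G418, so the drug was present in both groups. The hairpin sequences, and whether the cultures were pools or single clones, are not stated in the labels. Each group held 1 array (n = 1). No value therefore has a replicate error, no p-value can be given, and every difference describes these 2 arrays only.

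In unstressed cells KEAP1 holds NRF2 and passes it to the CUL3 ubiquitin ligase for degradation. Oxidants and electrophiles modify cysteines of KEAP1, NRF2 then accumulates and, with a small MAF protein, binds antioxidant response elements near its target genes. NRF2 is thus controlled largely at the level of the protein, which an RNA array does not measure. In the kidney this pathway protects tubule cells against oxidants, and it is known to be active in a subset of papillary renal carcinomas.

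The promoters of the 9 genes are shown first, because the antioxidant response element is the sequence through which NRF2 acts. RefSeq windows from 250 bases before to 50 bases after a transcription start (build GRCh38.p14) were held for 8 of the 9 genes, with 11 windows in all because some genes have more than 1 start. The core of the element was searched as TGACNNNGC on both strands. It was present in 4 of the 11 windows, from 3 genes (GCLM, TXNRD1 and KEAP1). Of all 35116 promoter windows of the table, 13.3% held the core, and of the 13767 windows of genes kept in the expression comparison 14.7% did. Below, the match with 20 bases on either side is printed 5′ to 3′ on the strand of the gene, with the match in capitals. A match on the opposite strand is printed as its reverse complement.
GCLM, chr1:93909436-93909484, minus strand, first capital 34 bases before the start: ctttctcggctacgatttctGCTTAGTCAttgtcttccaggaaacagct
KEAP1, chr19:10502774-10502822, minus strand, first capital 31 bases before the start: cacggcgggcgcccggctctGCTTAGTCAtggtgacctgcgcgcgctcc
TXNRD1, chr12:104215660-104215708, plus strand, first capital 99 bases before the upstream start: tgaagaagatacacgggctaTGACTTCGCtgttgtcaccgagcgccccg
TXNRD1, chr12:104286910-104286958, plus strand, first capital 102 bases before the downstream start: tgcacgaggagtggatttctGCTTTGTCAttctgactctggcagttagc
The matches of GCLM and KEAP1 had the same 9 letters, TGACTAAGC, on the opposite strand of both genes. KEAP1 held another match 54 bases before the same start, and the upstream TXNRD1 start held another at 8 bases before it.

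A related form of the core, TGAGNNNGC, was added after the promoters had been searched. With both forms allowed, 7 of the 11 windows, from 6 of the 8 genes, held a match. The same was true of 29.1% of all promoter windows and 31.6% of the windows of genes kept. OSGIN1 is shown for it, because its TGAGTCAGC also contains the letters TGAGTCA, the form that AP-1 factors bind.
OSGIN1, chr16:83953121-83953169, plus strand, first capital 99 bases before the start: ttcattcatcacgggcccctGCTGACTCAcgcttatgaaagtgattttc
SRXN1 and GCLC held neither form. The SRXN1 window is printed whole, because this gene had the largest difference of the 9. It has no capitals, and 80% of its bases were G or C.
SRXN1, chr20:653151-653450, minus strand: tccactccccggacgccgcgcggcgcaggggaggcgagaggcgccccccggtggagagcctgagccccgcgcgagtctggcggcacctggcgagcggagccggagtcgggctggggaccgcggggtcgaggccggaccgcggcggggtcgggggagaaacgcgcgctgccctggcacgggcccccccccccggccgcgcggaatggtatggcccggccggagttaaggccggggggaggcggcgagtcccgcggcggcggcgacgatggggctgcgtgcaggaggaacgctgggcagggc
These matches describe letters and not occupied sites. An element outside these windows was not searched for.

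FERMT2 was at 8.26 in the Kindlin-2 shRNA array and 9.37 in the control shRNA array, on the log2 scale of the deposited RMA values. The targeted gene was thus at 46.4% of the control level. Markers of the labelled cell type were then read. The kidney transcription factor PAX8 was at 11.29 in the Kindlin-2 shRNA array and 11.43 in the control shRNA array. All 10 measured renal epithelial markers reached 6.52, the median of all values of the table, on at least 1 array. Of these 10, 8 had the lower value in the Kindlin-2 shRNA array, and their median difference over all 10 was -0.42. PAX2 differed by -0.66, CDH16 by -0.83 and KRT8 by -0.54, whereas CDH6 differed by 0.91. Of 9 proximal tubule markers 5 were under 6.52 on both arrays, among them the receptors LRP2 and CUBN. Of the 4 kept, DPP4 differed by -0.64 and GATM by -0.65, and the transporters SLC34A1 and SLC22A6 differed by 0.36 and 0.30. Of the markers of other cell types, 6 of 7 endothelial and 7 of 8 leukocyte and red cell markers were under 6.52 on both arrays. The exceptions were CLDN5 and CD68, which is also a lysosomal protein. CD68 was at 10.25 in the Kindlin-2 shRNA array and 9.01 in the control shRNA array. Of 11 fibroblast and smooth muscle markers 4 were under 6.52 on both arrays, DCN and LUM among them. Of the 7 kept, 3 (RGS5, PDGFRB and ACTA2) were at least 1.5-fold lower in the knockdown array, and 3 were above 0. The highest value in this list was 11.06 in the Kindlin-2 shRNA array and 10.88 in the control shRNA array. The part of these renal, stromal and other markers in the differences below was not tested. The clear cell carcinoma markers CA9 and NDUFA4L2 had no cluster of their own symbol and were not analysed here. Of the 5 others, EGLN3 and CP were under 6.52 on both arrays. ANGPTL4 differed by 0.82, VEGFA by -0.16 and the lipid droplet protein PLIN2 by -0.39.

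A gene was kept when its higher value reached 6.52, which left 11822 genes. All 9 genes of the pathway passed, and their lower value was also above 6.52 in each case, so none passed through 1 array alone. The median difference of the 9, Kindlin-2 shRNA minus control shRNA, was 0.13 on the log2 scale, against -0.02 over all genes kept. A change in the share of cells that make a transcript and a change in its amount per cell cannot be told apart in such bulk RNA. In 6 of the 9 the Kindlin-2 shRNA value was the higher and in 3 the lower, while it was the higher in 46.4% of all genes kept. Only SRXN1 differed by at least 1.5-fold, upward, and 5.10% of all genes kept were at least 1.5-fold higher. None of the 9 was at least 1.5-fold lower, against 5.23% of all genes kept. None reached 2-fold in either direction, which 1.41% of genes kept did upward and 1.26% downward.

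**Figure D1:**
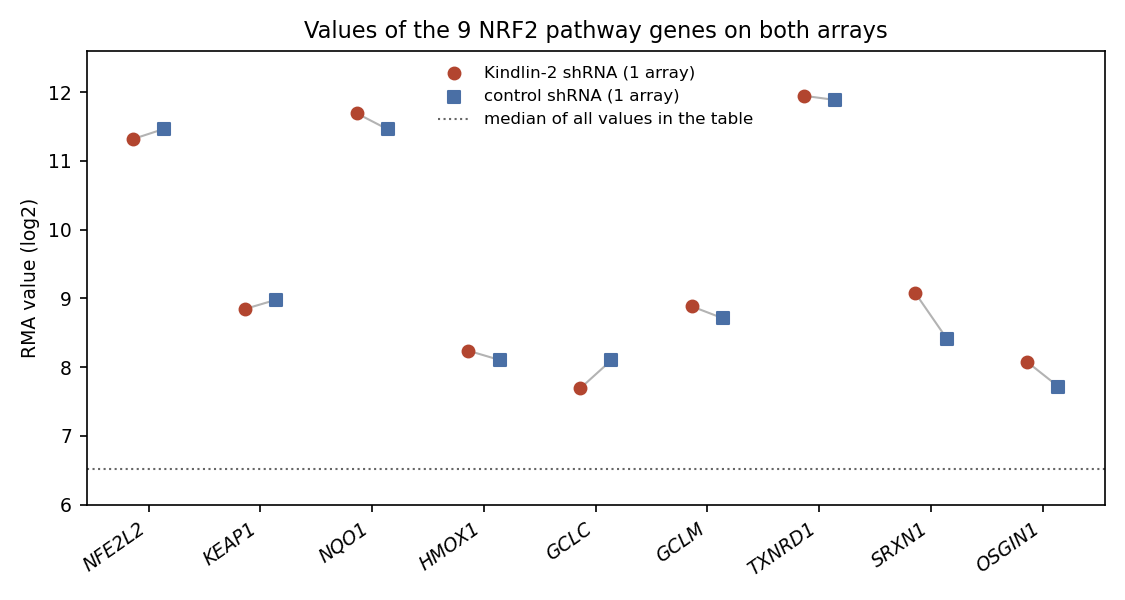
RMA values (log2, vertical axis) of the 9 genes, with the Kindlin-2 shRNA array as circles, the control shRNA array as squares and the median of the table as a dotted line. Heights may be compared between the arrays for 1 gene but not between genes, and the widest gap is that of SRXN1, at 9.07 in the Kindlin-2 shRNA array and 8.42 in the control shRNA array.

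NFE2L2 and KEAP1 were both slightly lower in the knockdown array. NFE2L2 was at 11.32 in the Kindlin-2 shRNA array and 11.46 in the control shRNA array, a difference of -0.15, or 90.2% of the control level. KEAP1 was at 8.84 in the Kindlin-2 shRNA array and 8.98 in the control shRNA array, a difference of -0.13, or 91.1% of the control level. Differences of this size were common, since 60.0% of genes kept differed by more than NFE2L2 and 63.3% by more than KEAP1. Beside NFE2L2 on chromosome 2, LINC01116 differed by -0.14 and AGPS by 0.25. The genes beside KEAP1 on chromosome 19 were lower too, PDE4A by 0.26 and S1PR5 by 0.16 on the log2 scale. The 50 genes kept that lie nearest to KEAP1 had a median difference of -0.12, and with that median subtracted KEAP1 differed by -0.01.

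The 2 subunits of glutamate-cysteine ligase, the enzyme of the rate-limiting step of glutathione synthesis, had differences of opposite sign. GCLC, the catalytic subunit, was at 7.69 in the Kindlin-2 shRNA array and 8.10 in the control shRNA array, a difference of -0.41, or 75.2% of the control level. GCLM, the modifier subunit that raises the activity of GCLC, was at 8.88 in the Kindlin-2 shRNA array and 8.71 in the control shRNA array, a difference of 0.17. The 2 differences lay 0.59 apart on the log2 scale. GCLC had the largest decrease of the 9 genes, and 1258 of all genes kept had a larger one. The nearest genes kept on either side of GCLC on chromosome 6 were lower by similar amounts, ELOVL5 at -0.34 and LRRC1 at -0.31. The 50 nearest genes kept had a median of -0.08. GCLC differed by -0.33 with that median subtracted. Beside GCLM on chromosome 1, DNTTIP2 differed by 0.22 and ARHGAP29 by 0.21, slightly more than GCLM.

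The 2 enzymes linked to thioredoxin and peroxiredoxin repair were both higher in the knockdown array, by unequal amounts. SRXN1, the sulfiredoxin that reactivates over-oxidised peroxiredoxins, was at 9.07 in the Kindlin-2 shRNA array and 8.42 in the control shRNA array. It was 1.58-fold higher, a difference of 0.66, and 471 genes kept had a larger increase. TXNRD1, the cytosolic selenoenzyme that reduces thioredoxin with NADPH, was at 11.95 in the Kindlin-2 shRNA array and 11.88 in the control shRNA array. Its difference of 0.06 was the smallest of the 9, and 82.7% of genes kept differed by more.

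The chromosomes of these 2 genes were shifted in opposite directions on these arrays. The 352 genes kept on chromosome 20, which holds SRXN1, had a median difference of 0.26. With it subtracted SRXN1 differed by 0.40, and with the median of its 50 nearest genes kept subtracted by 0.49, both under 1.5-fold. The nearest genes kept beside SRXN1 were slightly lower, TCF15 at -0.09 and SCRT2 at -0.13. SCRT2 was under 6.52 in the Kindlin-2 shRNA array and passed the filter through the control shRNA array alone. The 630 genes kept on chromosome 12, which holds TXNRD1, had a median of -0.21, and TXNRD1 differed by 0.27 with it subtracted and by 0.22 with its neighbours subtracted. The nearest genes kept beside TXNRD1 were NFYB, which differed by -0.37, and EID3, which differed by 0.66. EID3 was under 6.52 in the control shRNA array and passed the filter through the other array alone. The part of these shifts in the 2 differences was not tested.

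**Figure D2:**
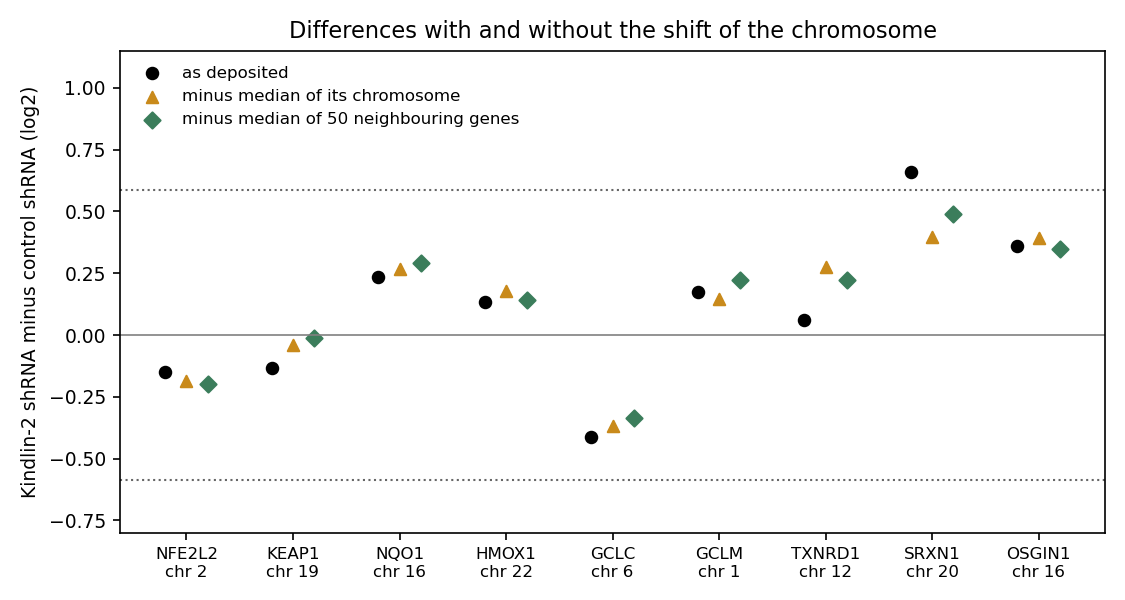
Difference between Kindlin-2 shRNA and control shRNA (log2, vertical axis) of each gene as deposited (circles), minus the median of its chromosome (triangles) and minus the median of its 50 nearest genes kept (diamonds). Dotted lines mark 1.5-fold, and SRXN1 is the only gene past one, at 0.66 as deposited and at 0.40 and 0.49 after the subtractions.

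The 3 other targets were all higher in the knockdown array. NQO1, the quinone reductase that is a standard readout of NRF2, was at 11.69 in the Kindlin-2 shRNA array and 11.46 in the control shRNA array, 1.18-fold higher. HMOX1, the inducible heme oxygenase, was at 8.24 in the Kindlin-2 shRNA array and 8.10 in the control shRNA array, 1.10-fold higher. OSGIN1, an oxidative stress-induced growth inhibitor, was at 8.07 in the Kindlin-2 shRNA array and 7.71 in the control shRNA array, 1.28-fold higher. None reached 1.5-fold. On chromosome 16, NFAT5 and NOB1 beside NQO1 differed by 0.01 and -0.18, and MLYCD and SLC38A8 beside OSGIN1 by -0.11 and 0.32. SLC38A8 was under 6.52 in the control shRNA array and passed the filter through the Kindlin-2 shRNA array alone. Beside HMOX1 on chromosome 22, TOM1 differed by -0.07 and MCM5 by 0.30. Larger differences in either direction were seen in 41.6% of genes kept for NQO1, 63.4% for HMOX1 and 24.8% for OSGIN1.

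The spread of the difference among genes of like brightness gave a scale for these values, although it is no replicate error. It was taken in 10 bins of genes kept and lay between 0.34 and 0.47 (SD over genes), which holds array noise as well as real differences. Over all genes kept the median size of the difference was 0.19, so most genes lay within the SD of their bin. The differences of 7 of the 9 genes were likewise smaller than the SD of their bin. The exact share of all genes kept within the SD of their bin was not computed, so the 7 cannot be set against it. SRXN1, at 0.66 against an SD of 0.42, and GCLC, at -0.41 against 0.39, were the others.

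**Figure D3:**
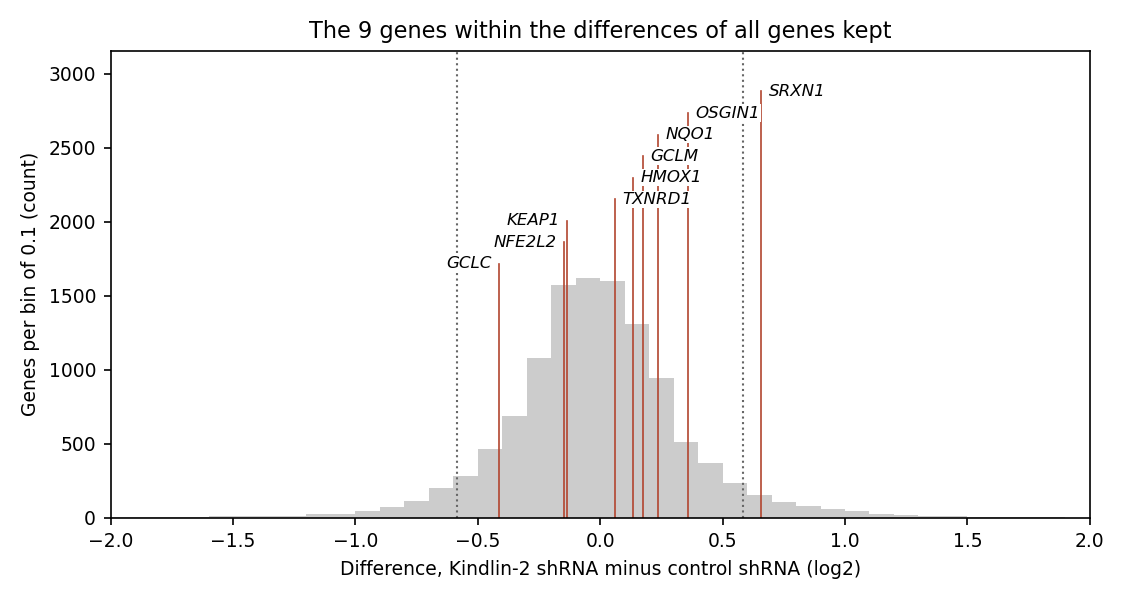
Number of genes kept (vertical axis) by difference between Kindlin-2 shRNA and control shRNA (log2, horizontal axis, bins of 0.1, drawn from -2 to 2), with a red line at each of the 9 genes, whose height carries no value. Dotted lines mark 1.5-fold, and 8 of the 9 genes lie between them.

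Around these 9, genes of the same network were read in 9 lists. Of 206 distinct genes listed, 187 were measured under a single symbol and 141 were kept. In the Kindlin-2 shRNA array 3 of the 141 were above the control by 1.5-fold or more and 12 below it by as much, with a median difference of -0.04. Among all genes kept, 5.10% were higher and 5.23% lower by that fold. The lists share genes, and their counts are descriptions of 2 arrays.

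The partners and regulators of NRF2 differed in both directions. Of 21 kept, 1 passed 1.5-fold upward and 1 downward, against 5.10% and 5.23% of all genes kept. The median difference of the 21 was -0.03. CUL3, the scaffold of the ligase that ubiquitinates NRF2, differed by -0.04, and BACH1, a repressor that competes at antioxidant response elements, by -0.03. The small MAF protein MAFG, a partner in DNA binding, differed by 0.27, and SQSTM1, the autophagy receptor that can sequester KEAP1, by 0.12. NFE2L3, a relative of NRF2, was at 9.94 in the Kindlin-2 shRNA array and 9.30 in the control shRNA array, 1.55-fold higher, although its chromosome 7 had a median of -0.22. The retinoid receptor RXRA, which can restrain NRF2, was at 7.49 in the Kindlin-2 shRNA array and 8.18 in the control shRNA array, 1.61-fold lower. The median over chromosome 9, where RXRA lies, was -0.31, and RXRA differed by -0.38 with it subtracted, under 1.5-fold. CHD6, a chromatin remodeller chosen once its value was known, differed by 0.52, and by 0.26 with the median of its chromosome 20 subtracted.

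Further known NRF2 targets went in both directions, and 18 of 27 kept were below 0. Of all 11822 genes kept, 6285 were below 0. The median difference of these targets was -0.13. Of these targets 1 was at least 1.5-fold higher and 6 lower by that fold, against 5.10% and 5.23% of all genes kept. The number of decreases was 5 under loess, median or quantile correction and with chromosome or neighbour medians subtracted. The gene that was higher, SLC7A11, imports the cystine used for glutathione and is also a target of ATF4. It was at 8.81 in the Kindlin-2 shRNA array and 7.34 in the control shRNA array. The largest decrease was that of AKR1C3, an aldo-keto reductase of steroids and prostaglandins, at 7.42 in the Kindlin-2 shRNA array and 8.48 in the control shRNA array. AKR1C1, a close paralog chosen once its value was known, was at a difference of -0.51.

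Among the other targets that were lower, the glutathione transferases GSTM4 and GSTM3 differed by -0.98 and -0.89, or 1.97-fold and 1.85-fold. The epoxide hydrolase EPHX1 differed by -0.80, a 1.75-fold decrease. SLC48A1, a heme transporter on chromosome 12, was 1.70-fold lower, but differed by -0.55 with the median of that chromosome subtracted and by -0.51 with its neighbours subtracted, both under 1.5-fold. CBR1, a carbonyl reductase chosen once its value was known, differed by -0.59, at the edge of 1.5-fold. Probes of the AKR1C and GSTM families can share sequence between paralogs, so the assignment of a difference to 1 member of such a family is uncertain. The abundant antioxidant PRDX1 differed by 0.09, the ferritin light chain FTL by 0.19 and malic enzyme ME1, which makes NADPH, by 0.44. The ferritin heavy chain FTH1 had no cluster of its own symbol and was not analysed here.

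The enzymes of glutathione synthesis, recycling and conjugation had a median difference of -0.0029 over 30 kept. Among them 2 passed 1.5-fold upward and 2 downward, against 5.10% and 5.23% of all genes kept. Beside SLC7A11, the second higher gene was GSS, which completes glutathione. GSS was at 10.04 in the Kindlin-2 shRNA array and 9.27 in the control shRNA array, 1.71-fold higher. It lies on chromosome 20 as SRXN1 does, and differed by 0.51 with that chromosome's median subtracted, under 1.5-fold. The 2 lower genes were GSTM3 and GSTM4. The glutathione reductase GSR differed by -0.03 and the lipid peroxide-reducing GPX4 by -0.06.

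Thioredoxins, peroxiredoxins and methionine sulfoxide reductases had a median difference of -0.04 over 17 kept. None was at least 1.5-fold higher and 2 were lower by that fold, against 5.10% and 5.23% of all genes kept. TXNIP, the protein that binds and inhibits thioredoxin, was at 7.88 in the Kindlin-2 shRNA array and 9.17 in the control shRNA array, 2.44-fold lower. Thioredoxin itself, TXN, was at 11.14 in the Kindlin-2 shRNA array and 11.16 in the control shRNA array. TXN lies on chromosome 9 and differed by 0.30 with the median of that chromosome subtracted. The methionine sulfoxide reductase MSRB3 was 1.74-fold lower, and differed by -0.59 with the median of chromosome 12 subtracted.

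In the lists of NADPH supply and of heme and iron, the 4 calls past 1.5-fold were decreases in the knockdown array, and 3 genes lay just under it on the other side. Over all genes kept, 5.23% were lower and 5.10% higher by that fold. Of 16 kept in NADPH supply, PGLS of the pentose phosphate pathway was 1.71-fold lower and the isocitrate dehydrogenase IDH1 1.57-fold lower. Of 17 kept in heme breakdown and iron handling, SLC40A1, the iron exporter ferroportin, was at 8.12 in the Kindlin-2 shRNA array and 9.32 in the control shRNA array, 2.29-fold lower. The other was SLC48A1. TALDO1 of the pentose phosphate pathway differed by 0.53, the transferrin receptor TFRC by 0.57 and the metal transporter SLC39A14 by 0.55, all chosen once their values were known. With neighbour medians subtracted TALDO1 was at 0.63, and with its chromosome's median subtracted SLC39A14 was at 0.60, both past 1.5-fold. HMOX2, the constitutive heme oxygenase, differed by 0.19.

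No gene passed 1.5-fold in the 3 remaining lists, against 5.10% of all genes kept upward and 5.23% downward. Superoxide dismutases, catalase and relatives had a median difference of -0.11 over 8 kept, with 3 above 0 and 5 below. The mitochondrial SOD2 was at -0.45 and catalase (CAT) at -0.27. SOD1, chosen once its value was known, was at 0.42. Genes of selenoprotein synthesis and selenoproteins other than TXNRD1, read as 1 list, had a median of -0.0035 over 21 kept. Of the list of oxidant-producing enzymes, 5 of 17 measured were kept, and they had a median of -0.23 with 2 above 0 and 3 below. All 5 are named, which was chosen once their values were known. Those below were the NADPH oxidase subunits CYBA, NOXA1 and NOXO1, and those above were ERO1A and ERO1B. ERO1B was under 6.52 in the control shRNA array. The other 12, among them the oxidases NOX1, NOX4, DUOX1 and DUOX2, were under 6.52 on both arrays. The median of this list was 0.11 with no filter.

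**Figure D4:**
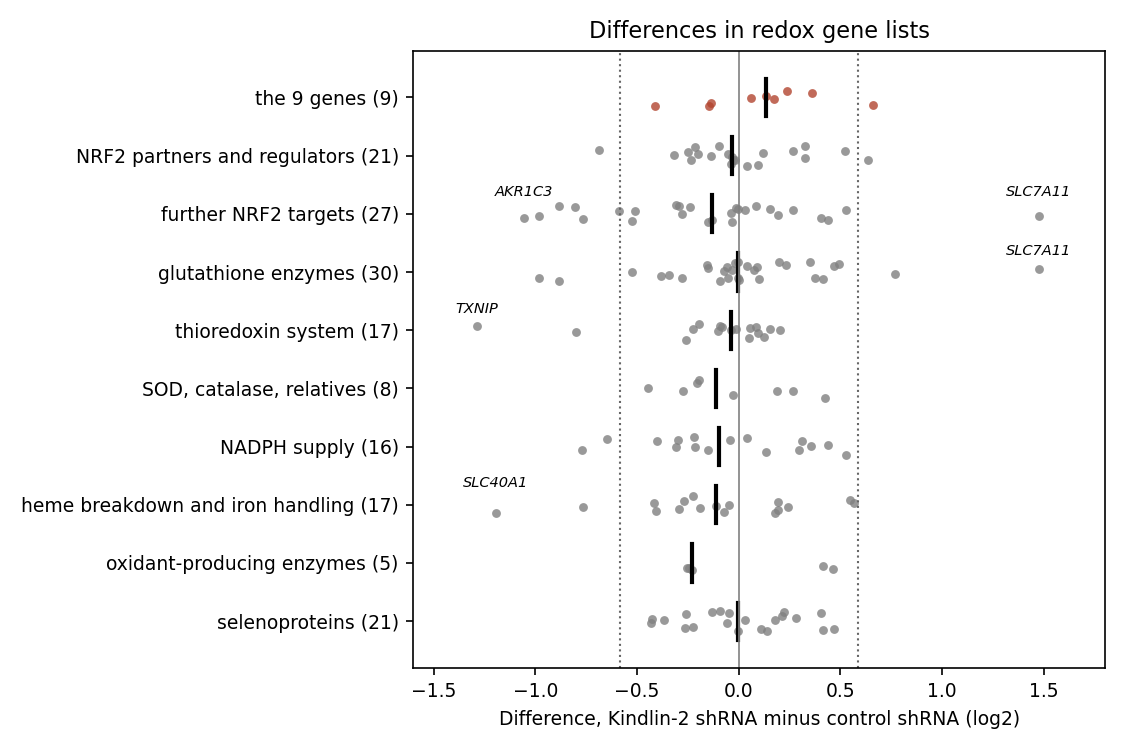
Differences between Kindlin-2 shRNA and control shRNA (log2, horizontal axis) of the genes kept in each list, 1 point a gene, with the number kept in brackets, the median as a black bar and 1.5-fold as dotted lines. Genes that differed by at least 2-fold are named, SLC7A11 to the right and AKR1C3, TXNIP and SLC40A1 to the left, and the 9 genes at the top lie between -0.41 and 0.66.

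No gene is given as having a pattern like that of the 9, because over 2 arrays every pair of genes that differ correlates at +1 or -1.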

How the data were processed

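Values of 33297 transcript clusters were deposited for 2 arrays, on a log2 scale as judged from their range (lowest 2.13, highest 14.04). The submitters' processing notes name RMA and Affymetrix Expression Console (version 1.4.1) as what the authors used. The arrays that were normalised with each other are not named there. RMA compresses differences between dim values, and no detection calls were given.

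The platform annotation of GEO gave the symbols, and current RefSeq names (GRCh38.p14) were found by Entrez ID for 19429 of 19460 clusters with 1 symbol. RefSeq positions served for chromosome, gene order and promoters. The brightest cluster stood for a gene. Differences were computed in Python 3.11.15. The code for counts and for the loess, chromosome and neighbour corrections was run on simulated arrays with planted changes. That run checks the code and not the reported differences. Over all clusters the arrays correlated at a Pearson r of 0.988, across genes and not replicates. The number of arrays limits the precision.

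The 9 genes and the lists were chosen with earlier results of these data known. From each list up to 4 genes per direction past 1.5-fold were named, with genes fixed by name and the neighbours of the 9. Some list genes outside this rule were chosen once their values were known, as said where they appear. Alternatives were other fold thresholds and filters, loess, median or quantile correction, the mean over clusters, and subtraction of chromosome or neighbour medians.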

Additional observations from a re-analysis of the deposited data

How the results depend on the processing

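Each of the 9 genes kept the sign of its difference under loess or repeated quantile correction and with chromosome or neighbour medians subtracted. The mean over clusters could change none of the 9, because each had 1 cluster. Median correction could change no sign either. It subtracts -0.02 from every gene, which is smaller in size than the smallest difference, 0.06 for TXNRD1. The count of the 9 at least 1.5-fold higher, 1 as reported (SRXN1), was 0 with the chromosome or the neighbour median subtracted. At the looser threshold, 0.32 on the log2 scale, it was 2 with 1 lower, against 1570 higher and 1851 lower among all genes kept. At 2-fold it was 0, against 167 higher and 149 lower among all genes kept. Oxidant-producing enzymes had a median of 0.080 with chromosome medians subtracted, -0.0044 with neighbour medians, 0.11 with no filter and 0.029 as a mean. Superoxide dismutases and relatives were at -0.00053 with neighbour medians subtracted. Other medians of lists moved by under 0.1, and FERMT2 lay between -1.19 and -1.08. The core TGACNNNGC was in 13.3% of promoters, TGACTCAGC or the core followed by an A in 3.59%, and TGACNNNGC or TGAGNNNGC, added after the search, in 29.1%. No paired analysis was possible because each group held 1 array, and for the same reason no array could be left out. The background correction was not varied, for want of scanner data. Without detection calls, dim and absent transcripts cannot be told apart.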
